A study of Mus musculus with 2 samples.

Results

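The MHC class II presentation genes of this study are the 10 rows of the raw count table with the symbols H2-Aa, H2-Ab1, H2-Eb1, H2-DMa, H2-DMb1, H2-DMb2, H2-Oa, H2-Ob, Cd74 and Ciita. They were taken by name, so no measured value chose them, and they are 10 of the 14654 genes in that table. All 10 had counts in both libraries. They were followed across dendritic cells (DC), macrophage states, lymphoid cells and CD45-negative cells, and between the 2 host genotypes.

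The cells came from YUMMER1.7 melanomas grown for 11 days under the skin of male C57BL/6 mice aged 8 weeks. The hosts were WT or Siah2-/-, and both carried the same tumor line, so the genotype is that of the host and not of the melanoma cells. Live CD45+ cells were sorted from tumors of each group and a smaller part of sorted CD45- cells was added back (the protocol and the series design state different parts), and 1 droplet library was made per genotype. Genotype, tumor pool, sort, library and sequencing lane are therefore the same split and cannot be told apart.

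The 4512 WT cells held 64783869 unique molecular identifiers (UMIs, each standing for 1 captured RNA molecule) and the 5563 Siah2-/- cells held 59082428, with medians of 11435 and 8699 per cell. The shallowest analysed cell held 6670 UMIs in WT and 4896 in Siah2-/-, and 34 barcodes occurred in both libraries. Levels are given in CPM, the UMIs of a gene in every 1000000 UMIs of a group of cells. Siah2 itself had 660 UMIs in WT, or 10.2 CPM (9.43 to 11.0), and 505 in the library labelled Siah2-/-, or 8.55 CPM (7.82 to 9.33). The 3′ reads of this gene therefore did not check the genotype labels, and every direction below is that of the library labelled Siah2-/-. Differences are given as the log2 ratio of Siah2-/- over WT. With 1 library per genotype there is no test, and "beyond counting error" means only that the 95% interval of a ratio, exact and conditional on the counted UMIs, does not include 0. All intervals cover counting error only and say nothing about the spread between mice.

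MHC class II molecules are dimers of an alpha and a beta chain that carry peptides from endosomes to the cell surface, where CD4 T cells read them. The invariant chain Cd74 fills the groove on the way, H2-DM exchanges its remnant for peptide, and H2-DO restrains H2-DM, chiefly in B cells and some DC. Ciita is the main transcriptional coactivator of class II genes, and professional presenting cells such as DC, macrophages and B cells are the usual place of its expression. H2-Aa and H2-Ab1 encode the chains of I-A, and H2-Eb1 the beta chain of I-E, whose alpha chain C57BL/6 mice do not make, so H2-Eb1 RNA is not a measure of surface I-E in these hosts.

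Cells were grouped by clustering in which neither the 10 genes nor other genes of the pathway took part, and the groups were named from marker genes. Each name means that the cells were like that type. Cd209a-led DC had Flt3, the DC growth factor receptor, in 46.0% of cells and Csf1r in 50.3%, so this group carried a macrophage marker as often as a DC marker. Mature DC had Ccr7 in 97.2% of cells and Flt3 in 75.2%. They also had the macrophage markers Csf1r in 24.8% and C1qa in 57.45% of cells, and the T cell gene Cd3e in 14.9%. The CD45 gene Ptprc was found in 63.8%. The macrophage groups had Csf1r, the macrophage growth factor receptor, in at least 97.6% of their cells, and the CD45-negative groups had Ptprc, which encodes CD45, in 19.1% and 22.9%. Several members were among the leading genes of the Mgl2-led and Cd209a-led groups although they took no part in the clustering, so levels across groups are a description with no test. Another group expressed T cell and macrophage markers together, and no doublet caller was applied.

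The 10 genes together were highest in Cd209a-led DC, at 76126 CPM in WT and 79511 CPM in Siah2-/-. Mgl2-led macrophages followed at 71356 and 65313 CPM. Interferon-induced macrophages had 65559 and 57756 CPM. The order of these 3 groups was the same in both libraries.

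Resident-type macrophages stood far below, at 25093 CPM in WT and 38416 CPM in Siah2-/-. Cycling Csf1r-positive cells had 27497 and 33722 CPM, and mature DC had 22767 and 23008 CPM. Monocyte-like cells were the lowest myeloid group, at 14330 and 13650 CPM. The cells with T cell and macrophage markers had 35457 and 36144 CPM.

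Lymphoid and CD45-negative groups were lower than Cd209a-led DC by more than 1 order of magnitude. Among T cells, Treg cells had 4250 and 2668 CPM, CD4 T cells 6348 CPM from only 30 WT cells and 1510 CPM in Siah2-/-, and the T cells not named further 2460 and 1109 CPM. Few cells carried much of the WT sums of Treg and CD4 T cells: 1 WT Treg cell held 33.4% of the class II UMIs of its group, and the median Treg cell, thinned to 4000 UMIs, held 4 in WT and 5 in Siah2-/-. Of the 30 WT CD4 T cells, 4 held at least 40 class II UMIs after thinning, against a median of 2. CD8 T cells had 1102 and 1201 CPM, fibroblast-like cells 991 and 1517 CPM, and NK cells, the lowest group in both libraries, 442 and 980 CPM. The fibroblast-like cells and the Hmga2-led CD45-negative cells (981 CPM) did not differ in WT beyond counting error, and neither did the fibroblast-like and CD4 T cells (1510 CPM) in Siah2-/-. Droplets with 10 to 100 UMIs, which hold free RNA rather than cells, had 14999 CPM in WT and 20567 CPM in Siah2-/-. Free RNA thus carried more of these genes per UMI than any lymphoid or CD45-negative group did, and more than the monocyte-like cells.

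**Figure D1:**
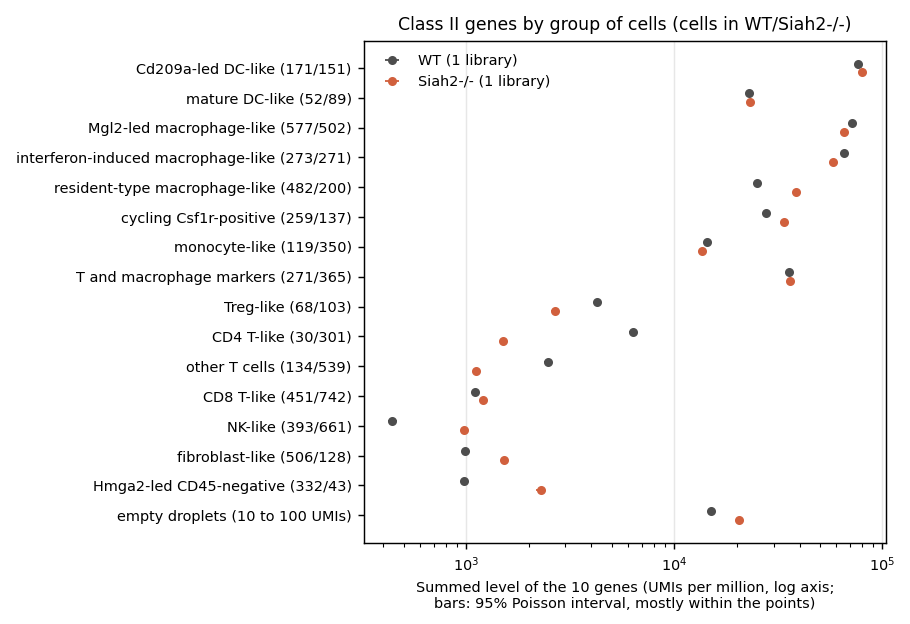
Summed level of the 10 class II genes in each group of cells, in CPM on a log axis, with WT in grey and Siah2-/- in orange and 95% Poisson intervals as bars. Cd209a-led DC and the Mgl2-led and interferon-induced macrophages sit at 57756 or above in both libraries, mature DC at 22767 and 23008, and NK cells at 442 and 980, while the points of the 2 libraries are farthest apart among T cells, NK cells and CD45-negative cells.

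Among the alpha and beta chain genes, H2-Ab1 had 16760 CPM in WT and 17147 CPM in Siah2-/- in Cd209a-led DC, 15005 and 14273 CPM in Mgl2-led macrophages, and 4666 and 7596 CPM in resident-type macrophages. H2-Aa had 11816 and 12826 CPM, 11122 and 9760 CPM, and 3634 and 5399 CPM in the same 3 groups. H2-Eb1 had 9178 and 9567 CPM, 8392 and 7373 CPM, and 2915 and 4534 CPM. The 3 genes kept this order of groups in both libraries, with resident-type macrophages far under the others.

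Mature DC differed from the other presenting cells in the mixture of alpha and beta chain RNA. H2-Aa had 4159 and 4533 CPM there and H2-Ab1 3080 and 3322 CPM, so that 1.35 and 1.36 UMIs of H2-Aa were counted per UMI of H2-Ab1. In Cd209a-led DC this ratio was 0.705 and 0.748, and over all macrophages 0.743 and 0.694. H2-Eb1 per H2-Ab1 was likewise 1.07 and 0.971 in mature DC against 0.551 and 0.498 in macrophages. Ratios between genes were not corrected for capture or length, so only the change of a ratio between cells is read, and here it was beyond counting error in both libraries.

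Cd74, the invariant chain, was the most counted member in every group with class II expression. It had 34491 and 36356 CPM in Cd209a-led DC, 33930 and 31261 CPM in Mgl2-led macrophages, and 11618 and 11296 CPM in mature DC. Per UMI of H2-Ab1 it gave 2.06 and 2.12 UMIs in Cd209a-led DC and 2.32 and 2.30 over all macrophages. The ratio was higher in mature DC, at 3.77 and 3.40, and in monocyte-like cells, at 2.86 and 3.5.

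H2-DMa, the alpha chain of the peptide exchanger, had 1416 and 1324 CPM in Cd209a-led DC, 1029 and 1086 CPM over all macrophages, and 257 and 245 CPM in mature DC. H2-DMb1, one of its beta chains, had 1202 and 1227 CPM, 1163 and 1171 CPM, and 196 and 153 CPM in these cells. In mature DC both genes lay below their levels in free RNA in both libraries. Monocyte-like cells, which were low in H2-Ab1 with 2609 and 2227 CPM, still had 705 and 557 CPM of H2-DMa. H2-DMa per 100 UMIs of H2-Ab1 was accordingly 27.0 and 25 in monocyte-like cells, 14.5 and 10.7 in resident-type macrophages, and 9.34 and 8.76 over all macrophages. Relative to H2-Ab1, H2-DMa was thus highest in the monocyte-like cells among the myeloid groups of both libraries.

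H2-DMb2, the second beta chain of the exchanger, separated DC from macrophages. It had 749 and 527 CPM in Cd209a-led DC, against 50.2 and 50.3 CPM over all macrophages. Of the UMIs of both beta chains, H2-DMb2 took 38.4% in WT and 30.0% in Siah2-/- in Cd209a-led DC, and 29.9% and 52.2% in mature DC. Over all macrophages it took 4.14% and 4.12%, and no macrophage group exceeded 5.48%. In free RNA the share was 12.8% and 12.1%. H2-DMb1 and H2-DMb2 are near-identical genes, and reads that match both are left out by the counting software, so the split between them is uncertain.

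The H2-DO genes were further limited. H2-Oa, the alpha chain of this inhibitor, had 339 and 356 CPM in Cd209a-led DC and 61.8 and 28.8 CPM in mature DC. Over all macrophages it had 7.55 and 9.28 CPM, from 145 and 195 UMIs. H2-Ob, its beta chain, had 80 and 91.3 CPM in Cd209a-led DC, 19.0 and 19.2 CPM in mature DC, and 6.25 and 4.0 CPM over all macrophages. After every cell was thinned to 4000 UMIs, H2-Oa was detected in 60.2% and 56.3% of Cd209a-led DC (median depth before thinning 9490 UMIs) and in 2.72% and 3.02% of macrophages. In NK cells, in 2 clusters with median depths of 8084 and 13190 UMIs, it was detected in 4.33% and 2.27%. The macrophage share was not clearly above that of NK cells, and the macrophage level lay below the 18.8 and 23.8 CPM of free RNA. Neither comparison decides whether macrophages express H2-Oa. Free RNA is only a part of the UMIs of a cell. NK cells held 22.2 and 15.3 UMIs of H2-Oa per 100 of H2-DMa, against 6.27 and 5.48 in free RNA, so their share may not be background. The macrophage level is therefore not read as expression. Without thinning, 81.9% and 66.9% of Cd209a-led DC had a UMI, beside 5.97% and 7.47% for macrophages and 8.91% and 5.60% for NK cells.

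Relative to the exchanger, H2-Oa was far higher in lymphoid cells than in macrophages. H2-Oa per 100 UMIs of H2-DMa was 22.3 in WT (18.5 to 26.8) and 20.3 in Siah2-/- (17.5 to 23.6) in lymphoid cells, beside 23.9 (22.0 to 26.1) and 26.9 (24.4 to 29.5) in Cd209a-led DC, so that the lymphoid value was lower than that of Cd209a-led DC beyond counting error in Siah2-/- and not in WT. It was 0.734 and 0.855 in macrophages, and 6.27 and 5.48 in free RNA. Among lymphoid groups it was 32.4 and 36.7 in the T cells that were not named CD4, CD8 or Treg, with 36 and 81 UMIs of H2-Oa, and 22.2 and 15.3 in NK cells, with 41 and 44 UMIs. In Treg cells it was 12.3 (5.71 to 23.9) and 4.82 (1.28 to 12.8), from 10 and 4 UMIs. Over all lymphoid cells the ratio was thus several times that of both macrophages and free RNA in both libraries, although this did not hold in Siah2-/- Treg cells. The level of H2-Oa over all lymphoid cells, 12.6 and 10.1 CPM, lay below the 18.8 and 23.8 CPM of free RNA. Free RNA is only a part of the UMIs of a cell, so this comparison cannot decide whether H2-Oa was expressed. Lymphoid cells held 145 and 212 UMIs of H2-Oa beside 8591 and 17204 of the macrophage genes C1qa, C1qb, C1qc, Apoe and Lyz2. Free RNA held 72 and 124 beside 50827 and 69586. Expression of H2-Oa in lymphoid cells was not tested. H2-DMa per 100 UMIs of H2-Ab1 also departed from free RNA in NK cells, at 47.8 and 19.1 against 9.19 and 9.15, where H2-DMa had 47.1 and 49.0 CPM.

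Ciita had 95 CPM in WT and 89.4 CPM in Siah2-/- in Cd209a-led DC, from 184 and 140 UMIs. Mgl2-led and interferon-induced macrophages had between 27.6 and 38.8 CPM in either library. Resident-type macrophages had 10.1 and 20.2 CPM, from 65 and 67 UMIs, and mature DC 7.92 and 16.0 CPM, from only 5 and 15 UMIs. In lymphoid cells Ciita had 2.69 and 2.38 CPM. Per 1000 UMIs of H2-Ab1 there were 5.67 and 5.21 UMIs of Ciita in Cd209a-led DC and 2.59 and 2.65 over all macrophages, with intervals that did not overlap between the 2 cell types in either library.

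**Figure D2:**
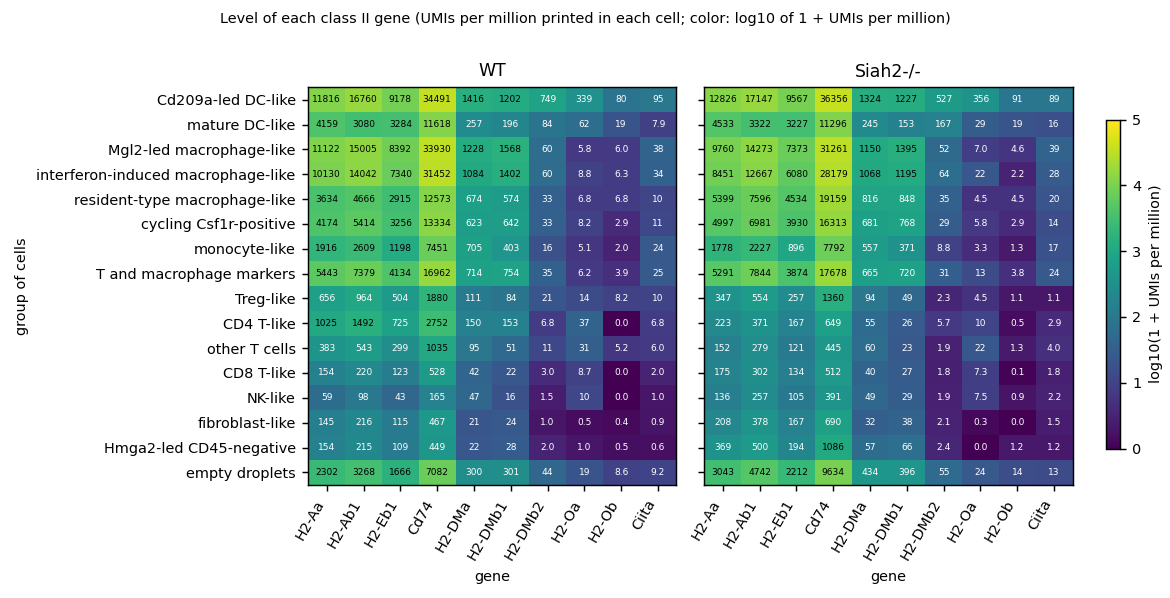
Level of each of the 10 class II genes (columns) in each group of cells (rows), 1 panel per library, with the CPM printed in each field and the color following the log10 of 1 plus that value. H2-Aa, H2-Ab1, H2-Eb1 and Cd74 are high in all presenting groups, while H2-DMb2, H2-Oa and H2-Ob stand out in Cd209a-led DC, with H2-Oa at 339 and 356.

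**Figure D3:**
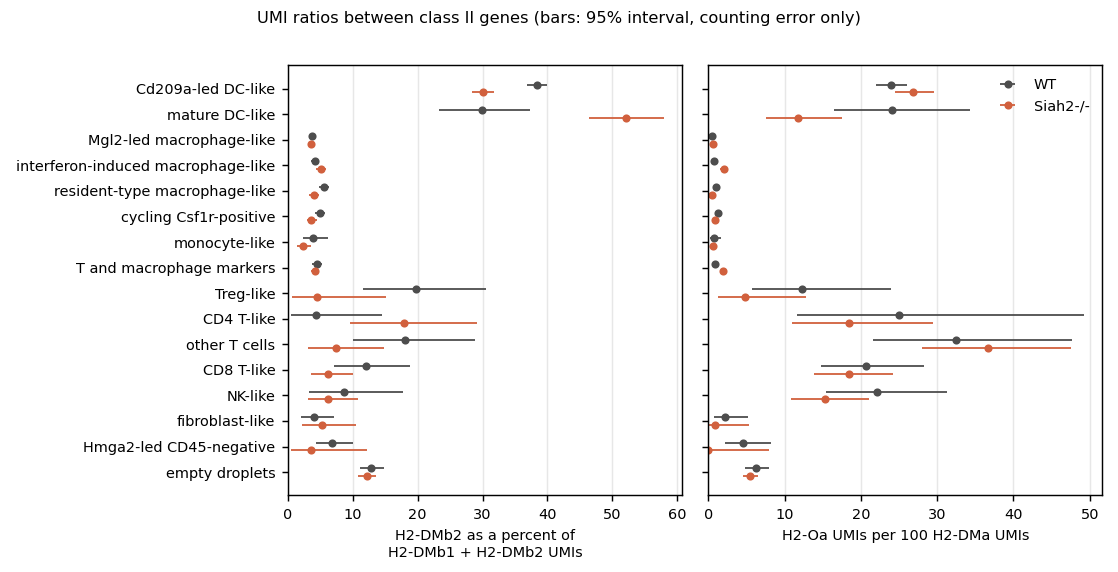
UMI ratios between class II genes by group of cells, with WT and Siah2-/- as points and 95% intervals for counting error as bars. H2-DMb2 takes 29.9% to 52.2% of the beta chain UMIs in DC and about 4% in macrophages, and H2-Oa per H2-DMa is high in DC and in lymphoid cells.

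Over the 28 sums of 14 groups in both libraries, the pattern of H2-Aa was closest to H2-Eb1 (Pearson r of log2 levels 0.998), Cd74 (0.998) and H2-Ab1 (0.994). H2-DMb1 followed at 0.970 and H2-DMa at 0.960. Ciita reached 0.882, H2-DMb2 0.820, H2-Ob 0.531 and H2-Oa 0.335. The 5 genes outside the set that were most like H2-Aa were Ifi30, which encodes a thiol reductase of endosomes, at 0.961, Plekho1 at 0.959, the myeloid transcription factor gene Spi1 at 0.954, Acvrl1 at 0.952 and the cathepsin gene Ctsh at 0.952. The genes most like Ciita were Rnase6 (0.951), Dapk1 (0.945), Naaa (0.941), Eepd1 (0.922) and Arhgap27os2 (0.918). These correlations describe sums that share libraries and cell types and are given without a test.

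Of the 10 genes, 8 lie on chromosome 17 of GRCm38 between the start of H2-Oa (ENSMUSG00000024334) at 34092340 and the end of H2-Eb1 (ENSMUSG00000060586) at 34316674. Going along the plus strand the others are H2-DMa (34119541 to 34139101), H2-DMb2 (34143307 to 34151555), H2-DMb1 (34153072 to 34160230), H2-Ob (34238903 to 34254414), H2-Ab1 (34257689 to 34269419) and, on the minus strand, H2-Aa (34282744 to 34287823). Ciita (ENSMUSG00000022504) lies on chromosome 16 from 10480059 to 10528418 on the plus strand. All are annotated as protein coding.

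Class II promoters are known for a module of short elements to which the factors that recruit CIITA bind, and 2 of its elements were searched as plain letters: CCNAGNNAC for the X1 type element and GATTGG for the Y element, which is an inverted CCAAT box. The letters of the elements do not overlap. Windows of 250 bases before to 50 after a RefSeq start (GRCm38.p6) were read for 7 members, in 8 windows because H2-DMa has 2. On either strand, CCNAGNNAC occurs in 17.3% of 32851 such windows and GATTGG in 16.1%, but CCNAGNNAC followed by GATTGG on the same strand with 25 to 45 bases between their first bases occurs in 45 windows, or 0.137%. H2-Oa, H2-DMb1 and H2-Ob hold this pair, with 36, 36 and 33 bases from start to start. The stretches below are shown because the 3 windows with the pair belong to genes with different patterns across cells, and because H2-DMb2, H2-Aa and H2-Eb1 have GATTGG without the X1 letters at that spacing before it. H2-DMb2 and H2-Aa hold the X1 letters farther upstream, at 192 and 180 bases before the start, outside the stretches shown. They are written 5′ to 3′ along the gene, with the matched letters in capitals.
H2-Oa, chr17:34092279-34092350, plus strand: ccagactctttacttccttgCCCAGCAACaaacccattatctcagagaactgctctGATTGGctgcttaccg
H2-DMb1, chr17:34153073-34153144, plus strand: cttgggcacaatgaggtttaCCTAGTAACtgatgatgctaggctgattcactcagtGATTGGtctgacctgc
H2-Ob, chr17:34238794-34238862, plus strand: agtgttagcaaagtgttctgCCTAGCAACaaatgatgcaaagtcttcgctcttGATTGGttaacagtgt
H2-DMb2, chr17:34145102-34145173, plus strand: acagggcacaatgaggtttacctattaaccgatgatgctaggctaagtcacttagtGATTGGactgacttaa
H2-Aa, chr17:34287857-34287928, minus strand: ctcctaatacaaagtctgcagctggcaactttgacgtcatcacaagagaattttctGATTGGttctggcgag
H2-Eb1, chr17:34305751-34305822, plus strand: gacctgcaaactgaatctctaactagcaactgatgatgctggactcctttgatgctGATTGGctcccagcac

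GATTGG starts 44, 62 and 58 bases before the start site in H2-Oa, H2-DMb1 and H2-Ob, and 91, 49 and 60 bases before it in H2-DMb2, H2-Aa and H2-Eb1. The stretches of H2-DMb1 and H2-DMb2 share 60 of 72 bases (83.3%). Of the 12 that differ, 1 lies within the X1 letters and is G5T, with the H2-DMb1 base first and positions counted from 1 at the first of those letters. A match is a description of the sequence and not a bound site, and the absence of these letters says nothing about binding. The windows with the pair belong to H2-DMb1, which was high in macrophages and DC, and to H2-Oa and H2-Ob, which were high in DC alone among the myeloid groups.

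Between the libraries, the members in macrophages as a whole differed little. The summed level was 53113 CPM in WT (1726 cells) and 57957 CPM in Siah2-/- (1954 cells), a log2 ratio of 0.13 (95% interval 0.12 to 0.13). H2-Ab1 had a log2 ratio of 0.17, Cd74 of 0.15 and H2-Aa of 0.07. H2-DMb1 had 0.01 and H2-DMb2 0.00, both within counting error. H2-Ob was the lowest, at -0.64 (-1.06 to -0.23) from 120 and 84 UMIs. Its levels of 6.25 and 4.0 CPM lay below the 8.64 and 14.4 CPM of H2-Ob in free RNA. Free RNA is only a part of the UMIs of a cell, so this does not decide the source of the H2-Ob UMIs. The ratio is not read as one of expression.

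None of the 10 members was higher by a log2 ratio of at least 0.5 in macrophages and 1, H2-Ob, was lower by that much. Over the 11599 genes with at least 20 UMIs in these cells, 11.7% were higher and 9.66% lower by 0.5, while 4.26% were higher and 2.72% lower by 1 or more, which no member was. The median log2 ratio was 0.07 over the members and -0.03 over all genes.

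The ratio for macrophages as a whole also depended on which states they were. Resident-type macrophages were 482 of the 1726 WT macrophages and 200 of the 1954 Siah2-/- macrophages. Without integration of the libraries the group held 430 WT and only 54 Siah2-/- cells, so its membership in Siah2-/- depended on the clustering. The summed level was lower in Siah2-/- in interferon-induced macrophages, with a log2 ratio of -0.18 (-0.19 to -0.17), and in Mgl2-led macrophages, with a ratio of -0.13. It was higher in resident-type macrophages, by 0.61 (0.60 to 0.62), and by 0.56 in the group formed without integration. With each cluster of the class given the same weight the ratio was -0.013, and without resident-type macrophages it was -0.13. Both settings were chosen after the values had been seen.

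**Figure D4:**
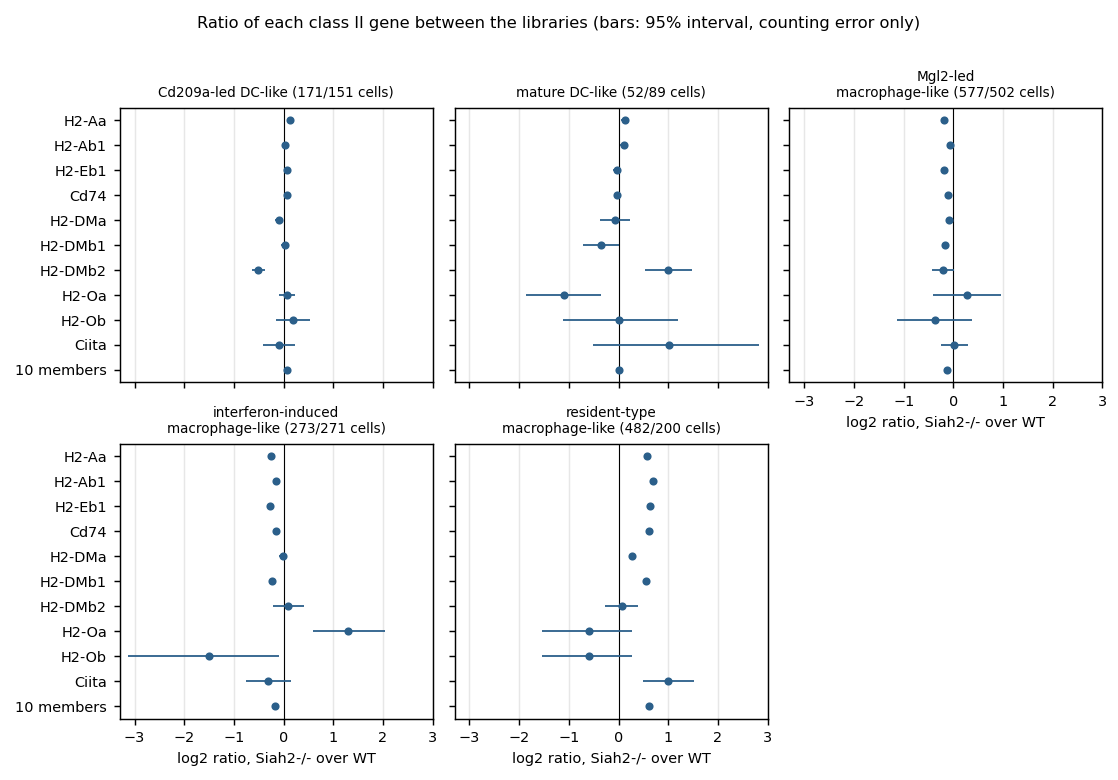
Log2 ratio of Siah2-/- over WT for each class II gene and for their sum in 2 DC groups and 3 macrophage groups, with 95% intervals for counting error as bars and 0 as a vertical line. Points lie left of 0 for most members in Mgl2-led and interferon-induced macrophages and right of 0 for 8 of 10 members in resident-type macrophages, where the sum is at 0.61.

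In resident-type macrophages H2-Ab1, H2-Aa, H2-Eb1 and Cd74 were all higher in Siah2-/-. H2-Ab1 had 4666 CPM in WT and 7596 CPM in Siah2-/-, a log2 ratio of 0.70 (0.68 to 0.73). H2-Eb1 had a ratio of 0.64, Cd74 of 0.61 and H2-Aa of 0.57. Among the exchanger genes H2-DMb1 was at 0.56 (0.49 to 0.63), close to H2-Aa and Cd74, while H2-DMa was at 0.28 (0.21 to 0.35) and H2-DMb2 at 0.07, within counting error. Ciita was at 1.00 (0.49 to 1.52), while H2-Oa and H2-Ob, with 44 and 15 UMIs each, were at -0.60, within counting error.

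By this measure 6 of 10 members were higher by 0.5 or more and 2 were lower, against 11.1% and 8.69% of the 9979 genes with at least 20 UMIs in these cells. Ciita was also past a ratio of 1, which 3.4% of genes were. The median over the members was 0.57 and over all genes 0.00. The macrophage genes C1qa, C1qb, C1qc, Apoe and Lyz2, summed, were lower in Siah2-/- in the same cells, with 58609 CPM in WT and 43182 CPM in Siah2-/-. Their part in the result was not tested.

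Cell by cell, the difference lay mainly in cells with little class II RNA. After thinning to 4000 UMIs, the median resident-type macrophage held 59 class II UMIs in WT and 160 in Siah2-/-. Cells with fewer than 5 made up 11.8% of the WT group (57 cells) and 0.5% of the Siah2-/- group (1 cell), and those with 5 to 9 made up 15.2% (73 cells) and 2.5% (5 cells). Cells with 160 to 319 made up 19.7% and 43.5%. The upper end was alike, since the 95th percentile was 332 in WT and 328 in Siah2-/-.

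The 40 UMI mark, a range and not a cell type, divided the WT resident-type macrophages into 216 cells below and 266 at or above it, and those of Siah2-/- into 35 and 165. Near the mark, 45 and 19 cells had 20 to 39 UMIs and 59 and 22 had 40 to 79. WT cells below it had more RNA of the 7 resident-like markers (4773 against 2487 CPM) and of Folr2 (318 against 77.6 CPM), the folate receptor typical of tissue-resident macrophages. They had less Ccr2 (50.8 against 198 CPM), the chemokine receptor of recruited monocytes, and less Mgl2 (8.98 against 77.0 CPM). In Siah2-/- the differences ran the same way, with 113 against 32.0 CPM for Folr2 and 75.3 against 134 CPM for Ccr2. Ciita had 2.42 against 16.3 CPM in WT and 7.84 against 23.1 CPM in Siah2-/-, from 7, 58, 5 and 62 UMIs. Ciita is itself in the sum that divided the cells, so its difference is partly built in. Among genes outside the sum, Ccr2 was higher and Folr2 lower at or above the mark in both libraries.

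**Figure D5:**
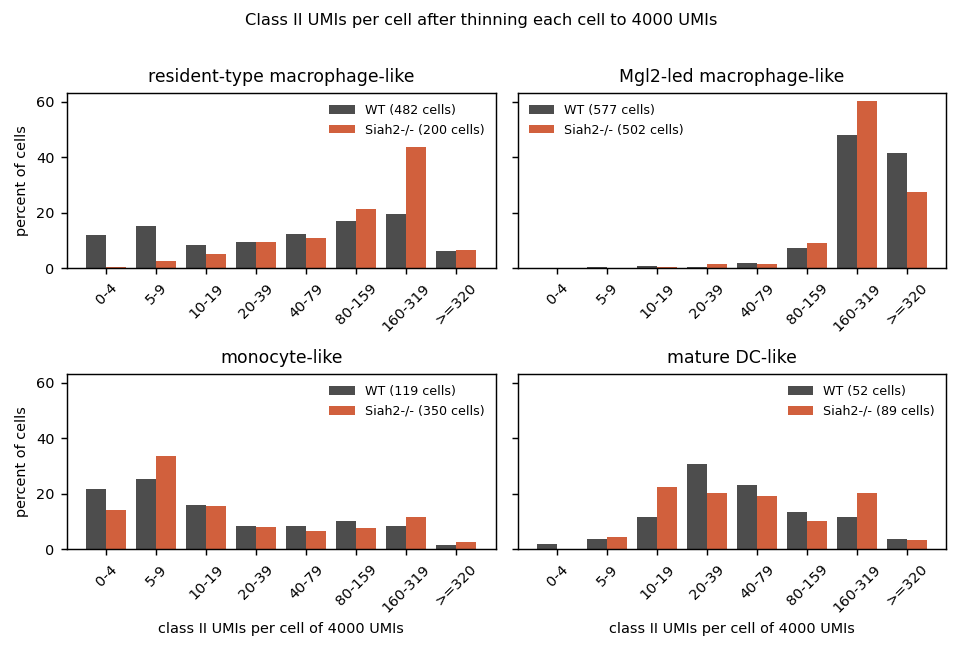
Class II UMIs per cell after each cell was thinned to 4000 UMIs, as the percent of cells of each library in each range, for 4 groups of cells. In resident-type macrophages the WT cells spread down to under 10 UMIs, with 11.8% under 5, where Siah2-/- has 0.5%, and the medians are 59 and 160.

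In the DC, macrophage and monocyte-like groups, cells in which Ciita was counted had more of the other 9 members in both libraries. In resident-type macrophages the 54 WT cells with a Ciita UMI had 46816 CPM of the other members against 22024 CPM in the 428 without, and the 49 Siah2-/- cells with it had 48360 against 34738 CPM. In monocyte-like cells the values were 33153 against 9698 CPM in WT, from 21 and 98 cells, and 26472 against 12147 CPM in Siah2-/-, from 36 and 314 cells. In Cd209a-led DC the log2 difference was only 0.12 and 0.16. Outside these groups the direction varied: NK cells with Ciita had 387 against 442 CPM in WT and 959 against 978 CPM in Siah2-/-, while CD8 T cells with it had 17544 against 583 CPM in WT and 8127 against 1036 CPM in Siah2-/-, from only 9 and 15 cells. Most groups showed deeper cells among those with Ciita, for example medians of 14206 against 12387 UMIs in WT resident-type macrophages, and the part of depth was not tested.

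In interferon-induced macrophages the alpha and beta chain genes and Cd74 were lower in Siah2-/-. H2-Aa had 10130 and 8451 CPM, a log2 ratio of -0.26 (-0.29 to -0.24), H2-Eb1 a ratio of -0.27, Cd74 of -0.16 and H2-Ab1 of -0.15. H2-DMa had 1084 and 1068 CPM, within counting error. H2-Oa had 8.83 and 21.7 CPM, a ratio of 1.30 (0.59 to 2.05), from 24 and 59 UMIs, and H2-Ob 6.26 and 2.21 CPM, a ratio of -1.50 (-3.13 to -0.09), from 17 and 6 UMIs. Both levels of H2-Ob were below the 8.64 and 14.4 CPM of free RNA, and both of H2-Oa below 18.8 and 23.8 CPM. This does not decide the source of the UMIs, since free RNA is only a part of a cell's UMIs. No direction of expression is read from either gene. The H2-Oa UMIs came from 13 and 30 cells, and without the top cell of each library the ratio was 1.35. With the same lowest UMI count in both libraries the H2-Ob ratio was -1.28 and within counting error. So 1 member was higher and 1 lower by 0.5 or more, against 12.6% and 8.61% of genes in these cells.

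In DC as a whole the summed level was 63015 CPM in WT (223 cells) and 58346 CPM in Siah2-/- (240 cells), a log2 ratio of -0.11 (-0.12 to -0.10). Cd209a-led DC were 171 and 151 of these cells and mature DC, whose level was much lower, 52 and 89. Within Cd209a-led DC the ratio was 0.06 (0.05 to 0.07), and within mature DC 0.02 (-0.02 to 0.05), within counting error. Without the 5% of cells with the highest UMI counts the ratio in mature DC was -0.10 (-0.13 to -0.07). Over all DC, 0 members were higher and 1, H2-DMb2 at -0.58, was lower by 0.5 or more, against 16.2% and 12.2% of 8959 genes. When DC were chosen by markers cell by cell, without any Csf1r UMI, the ratio was 0.70 from 89 WT and 68 Siah2-/- cells, of which 56 and 62 were in the DC clusters.

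H2-DMb2 differed in opposite directions in the DC groups. In Cd209a-led DC it had 749 CPM in WT and 527 CPM in Siah2-/-, a log2 ratio of -0.51 (-0.63 to -0.38), and was detected in 75.4% and 64.9% of thinned cells. It was the 1 member past 0.5 there, and 0 members were higher by that much, against 13.1% of genes lower and 15.5% higher. In mature DC it had 84.0 and 167 CPM, a ratio of 0.99 (0.54 to 1.47), from 53 UMIs in 13 cells and 157 UMIs in 31 cells. Cells with 5 or more of these UMIs held 36 of the 53 in WT (3 cells) and 113 of the 157 in Siah2-/- (12 cells). H2-Oa in mature DC had 61.8 and 28.8 CPM, a ratio of -1.10 (-1.87 to -0.36), but 13 of its 39 WT UMIs came from 1 cell, and without the top cell of each library the ratio was -0.77 and within counting error. Ciita was at 1.01 there, within counting error. So 2 members were higher and 1 lower by 0.5 or more in mature DC, against 17.9% and 13.1% of genes.

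Within Cd209a-led DC, cells with Xcr1 or Clec9a, the markers of the cross-presenting cDC1 type, numbered only 36 in WT and 19 in Siah2-/-, and cells with Cd209a 42 and 47. The cells with Xcr1 or Clec9a had 64343 and 76361 CPM of the 10 genes, and those with Cd209a 81376 and 77208 CPM. H2-Oa had 159 and 182 CPM in the former and 374 and 184 CPM in the latter. H2-DMb2 had 345 and 337 CPM in the former and 875 and 293 CPM in the latter. With under 50 cells in each of these groups no difference between genotypes is read from them. The 89 and 77 cells with none of the 3 markers had 80567 and 83421 CPM of the 10 genes. In them H2-DMb2 had 906 and 733 CPM, a log2 ratio of -0.31 (-0.46 to -0.15), and H2-Oa 428 and 516 CPM, a ratio of 0.27 (0.07 to 0.47), both beyond counting error.

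In lymphoid cells the summed level was 1347 CPM in WT (1076 cells) and 1216 CPM in Siah2-/- (2346 cells), a log2 ratio of -0.15 (-0.18 to -0.12). By group the direction varied: NK cells were at 1.15 (1.07 to 1.23), CD8 T cells at 0.12 and the T cells not named further at -1.15 (-1.22 to -1.08). A few cells carried much of the sum, since the top 1% of lymphoid cells held 46.2% of its UMIs in WT and 20.4% in Siah2-/-. After thinning, the median lymphoid cell held 2 class II UMIs in WT and 4 in Siah2-/-, and 18.8% and 2.05% of cells held none. The sum and the typical cell therefore pointed in opposite directions. Without cells that had any UMI of Csf1r or Flt3 or at least 5 of the C1q genes, an alternative chosen after seeing the data, the ratio was 0.41.

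Of the 10 members, 0 were higher and 2 lower by 0.5 or more in lymphoid cells, H2-DMb2 at -1.01 and H2-Ob at -0.75, the latter from 12 and 13 UMIs, against 13.1% and 9.09% of 11427 genes. H2-Ab1 was detected in 34.6% and 63.8% of thinned NK cells, which are not known to make it, and in 31.3% and 65.0% of all lymphoid cells, where the share is therefore read as background. Without thinning these shares were 61.1% and 88.7% of NK cells and 60.6% and 87.4% of lymphoid cells. Free RNA held more of the 10 genes in Siah2-/- than in WT, by a log2 ratio of 0.46 (0.44 to 0.47), while C1qa, C1qb, C1qc, Apoe and Lyz2 in free RNA were alike, at 13300 and 13349 CPM. These 5 genes had 745 and 819 CPM in lymphoid cells. The class II UMIs per UMI of the 5 genes were 0.882 and 1.56 in NK cells and 1.13 and 1.54 in free RNA. Over all lymphoid cells they were 1.81 and 1.48, and in WT they were above free RNA in Treg cells (7.52), T cells not named further (3.94) and CD4 T cells (2.14).

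In CD45-negative cells the summed level was 986 CPM in WT (838 cells) and 1670 CPM in Siah2-/- (171 cells), a log2 ratio of 0.76 (0.72 to 0.80). The size of this ratio depended on the cells taken and was much larger in some of the alternatives given at the end. Fibroblast-like cells, with 506 and 128 cells, had 991 and 1517 CPM, a ratio of 0.61 (0.57 to 0.66), and the 332 and 43 Hmga2-led cells had 981 and 2277 CPM. In the Hmga2-led cells the sum of C1qa, C1qb, C1qc, Apoe and Lyz2 also differed, with 797 and 1722 CPM, a ratio of 1.11 (1.03 to 1.19), and 9 WT and 4 Siah2-/- cells held at least 40 class II UMIs after thinning. Their part was not tested. The 8 members with at least 20 UMIs all had a ratio of 0.5 or more, from 0.52 for H2-DMb2, within counting error, to 0.90 for H2-Ab1, and 0 were lower by that much. In these cells 14% of 12071 genes were higher and 12.3% lower. H2-Oa had 16 and 1 UMIs and H2-Ob 10 and 1.

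The class II UMIs of CD45-negative cells stood to those of the 5 macrophage genes as 1.12 in WT and 1.52 in Siah2-/-, beside 1.13 and 1.54 in free RNA. Scaled by these 5 genes, free RNA would have given 21670 of 21559 class II UMIs in WT and 7027 of 6936 in Siah2-/-. H2-Ab1 was detected in 31.7% and 69.0% of thinned CD45-negative cells, beside 34.6% and 63.8% of NK cells, and is read as background. Without thinning the shares were 87.7% and 97.7%. The class I genes, which most cells make, were higher in Siah2-/- in the same cells, with 7 of 7 at 0.5 or more and Nlrc5, the class I coactivator, at 1.19.

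Other genes of the pathway were taken as 7 lists. In macrophages, the transcription list had 2 genes higher and 1 lower by 0.5 or more of 16 with enough UMIs, against the 11.7% and 9.66% of all genes. Prdm1, which encodes a repressor of Ciita, had 18.0 CPM in WT and 41.9 CPM in Siah2-/-, a log2 ratio of 1.22 (1.04 to 1.41), and Irf1, an interferon-induced activator, was at 0.54. Irf4 was at -0.84 and Nfyc at -0.21, the former within counting error from 18 and 11 UMIs. Of 6 genes of the interferon gamma receptor list 1 was higher, the feedback inhibitor gene Socs1 at 0.60.

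Of 13 endosomal processing genes, 1 was higher and 1 lower by 0.5 or more in macrophages, against 11.7% and 9.66% of all genes. Ctsl, a cathepsin of antigen processing, had 307 CPM in WT and 560 CPM in Siah2-/-, a log2 ratio of 0.87 (0.82 to 0.91), and Cst3, a cathepsin inhibitor, had 3318 and 2338 CPM, a ratio of -0.50. Ctss, the cathepsin that degrades the invariant chain, had 6572 and 6520 CPM. Of 12 turnover and trafficking genes 1 was higher, the tetraspanin gene Cd9 at 1.15, and 2 were lower, Cd63 at -0.86 and Cd83, whose product slows class II turnover, at -0.59, against the same 11.7% and 9.66%. March1, which encodes a ligase that removes class II from the surface, was at 0.29.

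Of 7 costimulation genes 3 were higher by 1 or more in macrophages, against 4.26% of all genes: Cd274 (PD-L1) had 46.4 CPM in WT and 126 CPM in Siah2-/-, a log2 ratio of 1.44 (1.33 to 1.55), Pdcd1lg2 was at 1.30 and Cd80 at 1.22. Icosl was the lowest, at -0.44. The 7 class I genes had a median of 0.25 and none reached 0.5, with Tap1 at 0.44 and Tap2 at 0.43. Of the other genes of the class II region, 4 of 7 had enough UMIs and none reached 0.5.

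In DC, the transcription list had 3 genes higher by 0.5 or more, with Prdm1 at 1.41 (0.40 to 2.5) from 12 and 31 UMIs and Irf1 at 0.95, and 0 lower, against 16.2% and 12.2% of all genes. Among the costimulation genes Cd274 was at 1.25 and Cd80 at 1.04, and Icosl was the lowest at -0.49. Ctsd, an aspartic cathepsin gene, was the highest of the processing list at 0.80. The median of the costimulation genes was 0.32 in macrophages and 0.30 in DC, beside 0.07 and -0.19 for the members.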

How the data were processed

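The authors demultiplexed the reads with bcl2fastq and counted them with Cell Ranger on mm10/GRCm38 (versions not given in the sources used here). The deposited counts are whole UMIs per gene and cell, in a raw table of 4524 WT and 5576 Siah2-/- cells and in matrices of all barcodes. The authors also deposited natural log values of 1 plus UMIs per 10000, which were used only to choose the 4512 and 5563 analysed cells. The members' counts were the same in table and matrices.

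Cells were clustered in Seurat 5.3.0 (R 4.3.3) from 1961 variable genes on 20 dimensions at resolution 0.8 after integration, without the members and pathway genes. Sums, exact Poisson and conditional binomial intervals, and exact binomial intervals of shares were computed with scipy 1.17.1. The Poisson and conditional binomial intervals were tested on simulated Poisson counts, which hold no extra spread between cells. Genes entered the background with at least 20 UMIs over both libraries. Free RNA was read from barcodes with 10 to 100 UMIs. Markers came from fixed lists, but naming thresholds were chosen with the clusters in view, and doublets were left in.

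The macrophage class holds 1 further group, whose own values are not reported here. The members and lists were chosen with earlier results of these data known. All members are named. In each class the 2 highest and 2 lowest genes of a pathway list could be named. Ctss, March1 and Cd80 in macrophages and the genes of the split of resident-type macrophages were named in addition, after their values had been seen. Alternatives were other cells, clusterings, gates, minimum depths, scalings and sets of members.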

Additional observations from a re-analysis of the deposited data

Results flagged for a closer look

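The summed class II level moved in opposite directions between the libraries in pairs of cell classes under the same contrast, which is why these values are listed. The log2 ratio of Siah2-/- over WT was 0.13 in macrophages and -0.11 in DC, 0.76 in CD45-negative cells and -0.15 in lymphoid cells, and 0.61 in resident-type and -0.18 in interferon-induced macrophages. With 1 library per genotype, none of these differences between classes was tested. Scaled by the 5 macrophage genes, free RNA would have given 21670 of 21559 class II UMIs of WT CD45-negative cells. In Siah2-/- it would have given 7027 of 6936, so no direction of expression is read from the 0.76. The directions in macrophages, DC and lymphoid cells were not settled: both DC groups alone were at 0.06 and 0.02, macrophages without the resident-type group at -0.13, and the lymphoid value reversed in 5 alternatives, in 1 of them (0.011) within counting error.

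Barcodes that the comparisons did not use also carried class II RNA. Among barcodes with at least 1000 UMIs, 10 in WT and 4 in Siah2-/- had at least 3 of 7 B cell markers and no macrophage, T cell or NK cell marker, and only 2 and 1 of them were in the raw table. Their summed level was 25902 CPM in WT and 46794 CPM in Siah2-/-, above that of free RNA in either library. H2-DMb2 had 15 and 19 UMIs in them against 2 and 12 of H2-DMb1, and H2-Oa had 11 and 9.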

How the results depend on the processing

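No paired analysis was possible because each genotype had 1 library, so no library could be left out either. For macrophages (log2 ratio 0.13) the value was 0.11 with all cells of the raw table, 0.17 without integration, 0.12 with the members kept in the clustering, 0.15 with the same lowest UMI count, 0.15 without the 5% deepest cells, 0.16 centred on the median gene, 0.10 without Cd74, and 0.23 and 0.24 with gates per cell on analysed cells and on barcodes with at least 1000 UMIs. Chosen after seeing the data, it was 0.14 with monocyte-like and cycling cells, and it reversed to -0.013 with equal weights and -0.13 without resident-type cells. For DC (-0.11) it was -0.10 with all cells, -0.10 without integration and -0.12 without Cd74, and reversed to 0.70 and 0.62 with the 2 kinds of gate. For lymphoid cells (-0.15) it was -0.27 with all cells, -0.33 without the deepest cells and -0.10 without Cd74, and reversed to 0.19 without integration, 0.011 with members kept (within counting error), 0.63 and 0.86 with the gates, and 0.41 without cells with macrophage or DC markers (added later). For CD45-negative cells (0.76) it was 0.88 with all cells, 0.71 without integration, 1.60 without the deepest cells, 2.86 and 2.03 with the gates, and 1.54 without cells with those markers (added later). The gates held 1661 and 1302 macrophages, 89 and 68 DC, 976 and 1973 lymphoid and 647 and 97 CD45-negative cells in WT and Siah2-/-, so they describe partly other cells. The causes were not tested.

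Among single groups, in alternatives added after seeing the data, resident-type macrophages stayed between 0.52 and 0.70 in all 7 and interferon-induced macrophages between -0.22 and -0.10. Resident-type macrophages without integration were 430 and 54 cells (0.56). Mature DC (0.02, within counting error) were at -0.10 without the deepest cells, -0.02 centred on the median gene and 0.07 without Cd74. Monocyte-like cells (-0.07) reversed to 0.65 without integration. The 9 tried ratios of single members kept their direction. Subtracting free RNA gave no ratio, since -985 UMIs were left in Siah2-/- lymphoid cells and -111 and -91 in CD45-negative cells, while WT lymphoid cells kept 5850 of 15538. The 810 genes past a ratio of 1 in macrophages became 2236 without a minimum of UMIs. Of the shares of cells with a UMI at other depths, 135 moved beyond their interval and 25 did not. In thinned cells more members had a higher share in Siah2-/- in macrophages (8 of 10) and CD45-negative cells (9 of 10) than in DC (1 of 10), and 0 to 9 over all depths tried.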

Other observations

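Barcodes with markers of plasmacytoid DC (pDC) were looked at apart. Among barcodes with at least 1000 UMIs, 56 in WT and 18 in Siah2-/- carried pDC markers and no marker of macrophages, T cells or NK cells. They had 14390 CPM of the 10 genes in WT and 7834 CPM in Siah2-/-, both below the 14999 and 20567 CPM of free RNA, with 85.1 and 58.2 CPM of H2-Oa and 569 and 866 CPM of H2-DMa. Only 18 and 17 of them were in the raw table, so the WT barcodes are mostly shallower than the analysed cells, and no difference is read from fewer than 50 barcodes in a library.

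Cells with T cell and macrophage markers had 35457 and 36144 CPM of the 10 genes, a log2 ratio of 0.03, and H2-Oa had 6.20 and 13.2 CPM, a ratio of 1.08 (0.40 to 1.82), from 24 and 69 UMIs, both below its 18.8 and 23.8 CPM in free RNA. In cycling Csf1r-positive cells the ratio of the sum was 0.29, with H2-Ab1 at 0.37 and H2-DMa at 0.13. In monocyte-like cells H2-Eb1 was at -0.42 (-0.52 to -0.32) and H2-DMa at -0.34, while Cd74 was at 0.06.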
